A study of Homo sapiens with 3 samples.

Results

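The members described here are 43 genes that encode SR proteins, heterogeneous nuclear ribonucleoproteins (hnRNPs) and core factors of the 3′ splice site. They were taken by symbol, namely the genes with a symbol that starts with SRSF or HNRNP and with a probe set annotated to them alone, together with U2AF1, U2AF2, SF1, the SF3A and SF3B genes, PTBP1, TRA2A, TRA2B and KHDRBS1. They were read by 159 of the 54675 probe sets on the array, and 19775 genes were measured in all. Expression had been profiled in sublines of C4-2B, an established human line of castration-resistant prostate cancer, of LNCaP origin. C4-2B MDVR cells were kept in 20 µM enzalutamide, an antiandrogen. C4-2B AbiR cells were kept in 10 µM abiraterone acetate, an inhibitor of androgen synthesis. C4-2B parental cells, passaged alongside without either drug, were the control for both. All 3 lines derive from the same cells and grew in the same serum-containing medium, and each was hybridized to 1 Affymetrix HG-U133 Plus 2.0 array.

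With 1 array per line there was no replicate error, and no test was possible for any difference. A value is a log2 expression value that had been centred for each probe set, so that an expression level could not be read from it. Differences between arrays within a probe set remained. The value of a gene is the mean of its probe sets, and ± gives the SD between the probe sets of a gene, which is not a spread between replicates. Differences between the transcripts or regions that the probe sets read may enter it besides measurement noise. For 45 spiked bacterial control probe sets the log2 difference from parental had an SD of 0.13 in MDVR and 0.10 in AbiR, and was at most 0.35 in MDVR and 0.20 in AbiR. Between MDVR and AbiR the control SD was 0.12 and the largest control difference 0.34. Less RNA per cell and fewer cells expressing a gene cannot be told apart in such bulk samples. Because levels could not be read, the prostate identity of the lines could not be checked from marker levels. The 7 luminal prostate markers measured had a median log2 difference from parental of −0.10 in MDVR and −0.13 in AbiR, and they were uneven. KLK3, which encodes prostate-specific antigen, differed by −4.07 ± 3.23 in MDVR and −3.17 ± 2.36 in AbiR (SD, 3 probe sets), and the prostate transporter gene SLC45A3 by −2.91 ± 0.72 in MDVR and −3.15 ± 0.35 in AbiR. TMPRSS2 was also lower in both, at −0.18 ± 0.11 in MDVR and −0.45 ± 0.12 in AbiR, and the keratin gene KRT18 was at −0.10 in each. The luminal keratin gene KRT8 was at 0.32 in MDVR and 0.30 in AbiR, and the homeobox gene HOXB13 at 0.37 ± 0.44 in MDVR and 0.17 ± 0.045 in AbiR. FOLH1, which encodes prostate-specific membrane antigen, was at 0.21 in MDVR and −0.13 in AbiR.

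SR proteins carry an arginine- and serine-rich domain and bind exonic enhancers, where they recruit the spliceosome to nearby splice sites. hnRNPs coat nascent transcripts and often act in the opposite sense by silencing exons. SF1 and U2AF recognise the branch point and the polypyrimidine tract, and the SF3A and SF3B complexes then anchor the U2 snRNP there. In prostate cancer these factors are studied for their part in the choice between alternative transcripts.

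The promoters of 3 members are shown. HNRNPAB held the lowest and HNRNPH3 the highest mean difference in MDVR cells, and the probe sets of HNRNPD spanned the widest range there. Each line gives 300 bases, 250 before and 50 after the start, 5′ to 3′ on the strand of the gene, from RefSeq on GRCh38.p14. The windows are chr5:178204283-178204582 on the plus strand for HNRNPAB, chr10:68331443-68331742 on the plus strand for HNRNPH3 and chr4:82373942-82374241 on the minus strand for HNRNPD. Capitals mark an E-box (CACGTG, its own reverse complement) or an ETS site (CCGGAAG or CTTCCGG), searched on both strands.
HNRNPAB: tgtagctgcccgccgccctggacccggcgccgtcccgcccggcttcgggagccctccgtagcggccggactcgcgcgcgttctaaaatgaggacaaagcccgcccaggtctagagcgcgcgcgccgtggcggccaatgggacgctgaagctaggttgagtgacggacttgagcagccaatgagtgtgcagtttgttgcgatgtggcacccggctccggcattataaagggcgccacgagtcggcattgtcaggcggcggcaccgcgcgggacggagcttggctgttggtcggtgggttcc
HNRNPH3: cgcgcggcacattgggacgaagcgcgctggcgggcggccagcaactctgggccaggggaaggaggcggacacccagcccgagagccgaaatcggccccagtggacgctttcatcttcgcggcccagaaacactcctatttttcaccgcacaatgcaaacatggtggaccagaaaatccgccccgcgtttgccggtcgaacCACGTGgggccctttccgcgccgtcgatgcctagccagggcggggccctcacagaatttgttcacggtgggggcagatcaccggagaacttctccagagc
HNRNPD: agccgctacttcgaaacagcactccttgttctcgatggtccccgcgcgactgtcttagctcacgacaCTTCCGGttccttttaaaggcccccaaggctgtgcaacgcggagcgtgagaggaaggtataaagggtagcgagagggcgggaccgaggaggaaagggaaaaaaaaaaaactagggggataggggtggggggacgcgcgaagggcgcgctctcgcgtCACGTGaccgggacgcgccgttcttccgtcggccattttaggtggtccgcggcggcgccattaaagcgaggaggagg
The HNRNPAB window held no match to any of these letters. The HNRNPH3 window held an E-box whose first base was at −50 from the start. The HNRNPD window held an E-box at −27 and an ETS site at −183.

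Promoter windows were matched for 40 of the 43 members, and those of TRA2A, HNRNPA1 and SF3B3 were not matched. An E-box was found in 8 of the 40 member windows, 20.0%, against 7.43% of 27305 promoters. The ETS letters were found in 11 member windows, 27.5%, against 10.7% of all promoters. The median GC content was 66.5% for the members and 58.3% for all promoters. A match is a description of the letters in the window and not a site of binding.

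Most members differed little between the arrays in either subline. In MDVR cells the median log2 difference from parental was −0.051 over the members, against 0.044 over all genes, and the members ranged from −1.13 (HNRNPAB) to 0.47 (HNRNPH3). In AbiR cells the median was −0.053 over the members, against −0.011 over all genes, and the range ran from −0.49 (HNRNPF) to 0.55 (TRA2A). Both comparisons share the parental array, so that a high or low parental value enters both. The parental array held the highest value of the 3 for 21 of 43 members, 48.8%, against 30.1% of all genes. MDVR was the highest for 12 members, 27.9%, against 45.9% of all genes. AbiR was the highest for 10 members, 23.3%, against 24.0% of all genes.

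**Figure D1:**
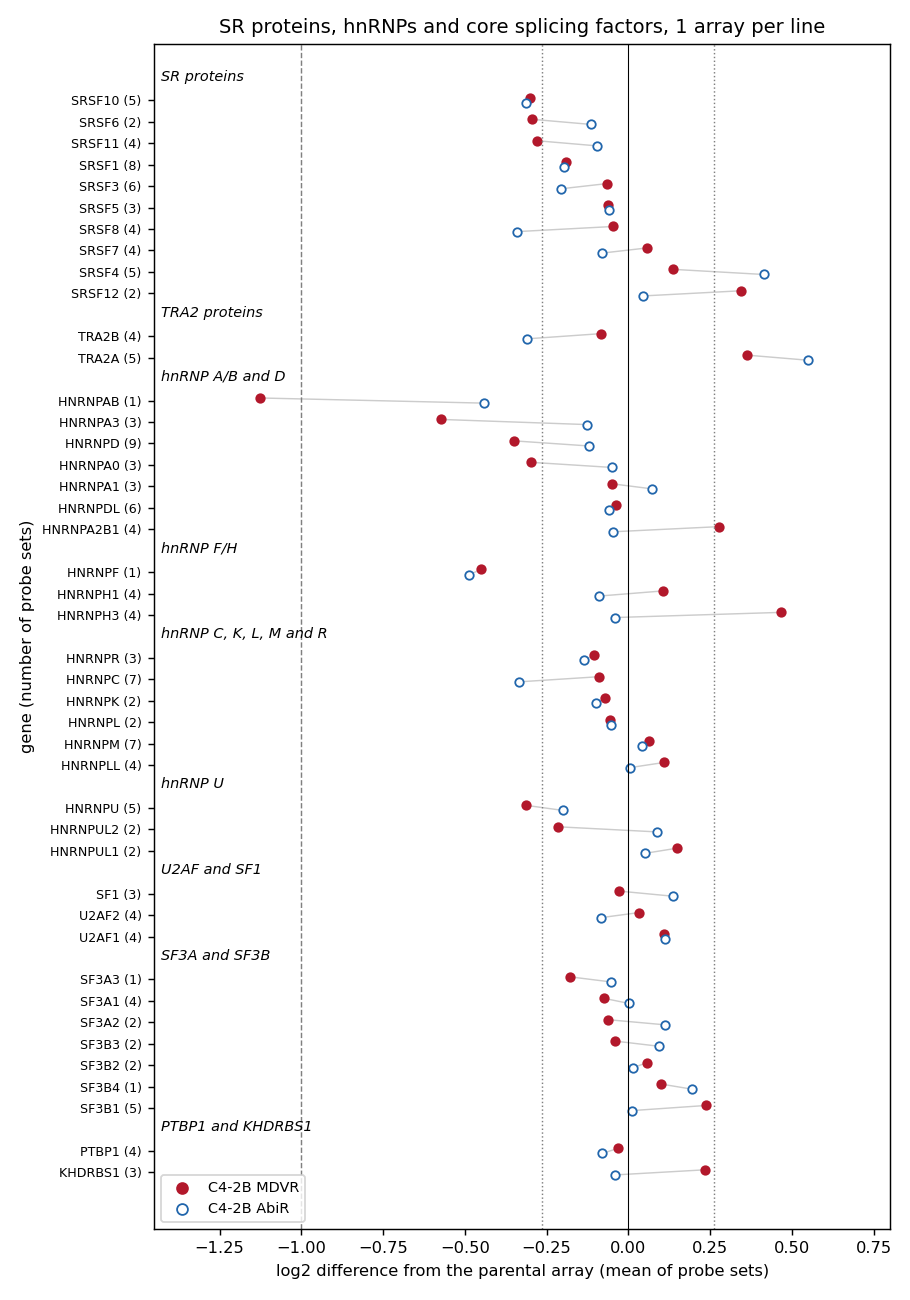
Log2 difference from the parental array for each of the 43 member genes, grouped by class, with MDVR as filled and AbiR as open circles. Circles are means over the probe sets, whose number follows the symbol, dotted lines mark 1.2-fold and the dashed line a 2-fold lower value, which HNRNPAB in MDVR cells passed at −1.13.

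In MDVR cells 9 of 43 members were at least 1.2-fold lower than in parental cells, 20.9%, against 15.0% of all genes. They were HNRNPAB, HNRNPA3, HNRNPF, HNRNPD, HNRNPU, HNRNPA0, SRSF10, SRSF6 and SRSF11. HNRNPH3, TRA2A, SRSF12 and HNRNPA2B1 were at least 1.2-fold higher, 4 of 43 or 9.30%, against 18.2% of all genes. Members had a median of 4 probe sets and genes in general 2, which bears on how far a mean can lie from 0. Among the 2728 genes with 4 or more probe sets, 12.8% were higher by that factor and 16.7% lower. Only 23 of the members had that many probe sets. Of these, HNRNPD, HNRNPU, SRSF10 and SRSF11 were lower, and HNRNPH3, TRA2A and HNRNPA2B1 were higher. The counts over all 43 members are therefore not like for like with these shares. One member, HNRNPAB, was at least 1.5-fold and at least 2-fold lower, against 5.15% and 1.67% of all genes. No member was at least 1.5-fold higher, against 4.81% of all genes, or 2-fold higher, against 1.65%.

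In AbiR cells 6 of 43 members were at least 1.2-fold lower, against 11.7% of all genes, namely HNRNPF, HNRNPAB, SRSF8, HNRNPC, SRSF10 and TRA2B. TRA2A and SRSF4 were at least 1.2-fold higher, 2 of 43, against 11.6% of all genes. No member reached a 1.5-fold difference, against 3.32% of all genes higher and 2.52% lower, and none a 2-fold difference, against 1.07% higher and 0.804% lower. Among genes with 4 or more probe sets, 10.2% were at least 1.2-fold higher in AbiR and 10.9% lower. Of the 23 members with that many, TRA2A and SRSF4 were higher, and SRSF8, HNRNPC, SRSF10 and TRA2B were lower. Differences below 0 of any size were held by 27 of 43 members in MDVR cells, 62.8%, against 42.4% of all genes. In AbiR cells they were also held by 27 members, 62.8%, against 52.4% of all genes. Most of these differences were smaller than the largest difference of a spiked control. That largest difference is the extreme of single probe sets, while most member values are means over several.

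The factors that recognise the 3′ splice site differed little. U2AF2, the large U2AF subunit that binds the polypyrimidine tract, had mean centred log2 values of 0.090 in MDVR, −0.027 in AbiR and 0.057 in parental cells. Its log2 difference from parental was 0.034 ± 0.16 in MDVR and −0.084 ± 0.19 in AbiR (SD, 4 probe sets), and neither mean exceeded that spread. U2AF1, the small subunit that reads the terminal AG of the intron, differed by 0.11 ± 0.15 in MDVR and 0.11 ± 0.29 in AbiR. SF1, which binds the branch point first, differed by −0.029 ± 0.25 in MDVR and 0.14 ± 0.26 in AbiR. None of these 3 genes reached a 1.2-fold difference in either subline.

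The 7 SF3A and SF3B genes likewise stayed below a 1.2-fold difference in both sublines, with medians of −0.039 in MDVR and 0.014 in AbiR. SF3B1, the SF3B scaffold that clamps the branch helix and is often mutated in cancer, was the highest of them in MDVR, at 0.24 ± 0.27. Its 5 probe sets were uneven, with MDVR differences of 0.55, 0.50, 0.14, 0.026 and −0.022. In AbiR the SF3B1 mean was 0.010 ± 0.22. SF3B2, which contacts the pre-mRNA near the branch point, had centred values of 0.051 in MDVR, 0.0078 in AbiR and −0.0067 in parental cells, and differed by 0.057 ± 0.027 in MDVR and 0.014 ± 0.12 in AbiR. SF3A3, an SF3A subunit read by 1 probe set, was the lowest in MDVR at −0.18. SF3B4, another subunit that contacts RNA near the branch point, was the highest in AbiR at 0.19, also on 1 probe set, and at 0.10 in MDVR. The remaining subunits lay between −0.075 (SF3A1) and −0.039 (SF3B3) in MDVR, and between 0.0016 (SF3A1) and 0.11 (SF3A2) in AbiR.

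The 10 SR proteins measured had a median log2 difference of −0.065 in MDVR and −0.11 in AbiR. In MDVR cells 3 were at least 1.2-fold lower and 1 at least 1.2-fold higher, against 15.0% and 18.2% of all genes. In AbiR cells 2 were lower and 1 was higher, against 11.7% and 11.6% of all genes. SRSF1, the founding SR protein and a splicing factor that can act as an oncoprotein, had mean values of −0.0025 in MDVR, −0.0062 in AbiR and 0.19 in parental cells. The difference was −0.19 ± 0.19 in MDVR and −0.20 ± 0.26 in AbiR (8 probe sets). In MDVR, 7 of the 8 probe sets lay between −0.49 and −0.081, and the remaining probe set was at 0.090. SRSF3, a small SR protein that also promotes mRNA export, differed by −0.065 ± 0.10 in MDVR and −0.20 ± 0.091 in AbiR, and all 6 of its probe sets were lower in AbiR. SRSF5, another enhancer-binding SR protein, differed by −0.064 ± 0.15 in MDVR and −0.058 ± 0.044 in AbiR. SRSF7, which carries a zinc knuckle, differed by 0.058 ± 0.061 in MDVR and −0.079 ± 0.32 in AbiR.

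SRSF8, a close relative of SRSF2, was lower in AbiR on every probe set. Its mean centred values were 0.10 in MDVR, −0.19 in AbiR and 0.15 in parental cells. The AbiR differences of its 4 probe sets were −0.48, −0.31, −0.31 and −0.26, with a mean of −0.34 ± 0.094. In MDVR cells the mean was −0.045 ± 0.072. The MDVR minus AbiR difference of SRSF8 was 0.30 ± 0.12, with all 4 probe sets higher in MDVR. It was smaller than the largest control difference of 0.34, and 13.6% of all genes had a higher value.

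SRSF10, which represses splicing when it is dephosphorylated after heat shock, was lower in both sublines by its mean, at −0.30 ± 0.57 in MDVR and −0.31 ± 0.21 in AbiR. The probe sets behind these similar means were unlike. In AbiR all 5 probe sets were lower, from −0.64 to −0.13. In MDVR they ran from −1.0 to 0.38, with 3 lower and 2 higher. SRSF11, an SR-related protein that contacts U2AF, showed a similar unevenness in MDVR, where 1 probe set was at −0.98 and the other 3 lay between −0.16 and 0.080. SRSF6, a regulator of many alternative exons, had 2 probe sets that differed in sign, with −0.83 and 0.24 in MDVR. In AbiR the SRSF11 mean was −0.10 ± 0.17 and the SRSF6 mean −0.11 ± 0.079.

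SRSF4, a long SR protein, and SRSF12, an SR-related repressor, were on the other side. SRSF4 had mean values of 0.012 in MDVR, 0.29 in AbiR and −0.13 in parental cells, a difference of 0.14 ± 0.35 in MDVR and 0.41 ± 0.52 in AbiR. The AbiR mean rested on 2 of 5 probe sets, which were at 1.0 and 0.97, while the other 3 lay between 0 and 0.085. SRSF12 was higher in MDVR, at 0.49 and 0.20 on its 2 probe sets, and differed by 0.045 ± 0.12 in AbiR. Of the further SR genes, SRSF2 and SRSF9 had only probe sets shared with another annotated gene and have no value among the members.

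The TRA2 genes, human counterparts of Drosophila transformer-2 that bind GA-rich exonic enhancers, pointed in opposite directions in AbiR cells. TRA2A had mean centred values of 0.017 in MDVR, 0.20 in AbiR and −0.35 in parental cells, so that parental was the lowest. The difference was 0.36 ± 0.28 in MDVR and 0.55 ± 0.59 in AbiR, the highest AbiR value of any member. In MDVR all 5 probe sets were above 0, from 0.0077 to 0.65. In AbiR 4 of 5 were above 0, with 1.15 and 1.09 as the highest values and −0.27 as the lowest. TRA2B had mean values of 0.11 in MDVR, −0.11 in AbiR and 0.20 in parental cells. All 4 TRA2B probe sets were lower in AbiR, from −0.40 to −0.10, with a mean of −0.31 ± 0.14. In MDVR the TRA2B mean was −0.084 ± 0.36.

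The hnRNP A/B and D proteins, which carry paired RNA recognition motifs and a glycine-rich tail, held the lowest MDVR values. The median of the 7 genes was −0.30 in MDVR and −0.060 in AbiR, and 4 of the 7 were at least 1.2-fold lower in MDVR, against 15.0% of all genes. With the median instead of the mean over the probe sets of a gene on each array, the MDVR median of the class was −0.033, which was then the value of HNRNPD. HNRNPAB, an AU-rich and CArG-box binding member, had centred values of −0.61 in MDVR, 0.078 in AbiR and 0.52 in parental cells. MDVR was therefore 2.18-fold lower than parental (log2 difference −1.13) and AbiR 1.36-fold lower (−0.44). HNRNPAB was read by 1 probe set, which carries the suffix for probes shared between transcripts, so that no second probe set could check it. Among all genes 98.8% had a higher MDVR minus parental value than HNRNPAB.

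HNRNPA3, which resembles HNRNPA1 and is also known to bind RNA trafficking elements, was lower in MDVR on all 3 probe sets. The differences were −0.85, −0.47 and −0.40, with a mean of −0.57 ± 0.24, or 1.49-fold lower. In AbiR the mean was −0.13 ± 0.024. The probe sets shared between HNRNPA3 and a pseudogene, which were left out of that mean, lay between −0.56 and −0.086 in MDVR. HNRNPA0, which binds AU-rich stress-response transcripts, was lower in MDVR on all 3 probe sets, from −0.48 to −0.14 with a mean of −0.30 ± 0.17, and differed by −0.050 ± 0.052 in AbiR.

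HNRNPA2B1, a binder of UAG motifs and of methylated transcripts, differed in the other direction. Its mean values were 0.25 in MDVR, −0.077 in AbiR and −0.031 in parental cells. All 4 probe sets were higher in MDVR, from 0.16 to 0.36 with a mean of 0.28 ± 0.10, while the AbiR mean was −0.046 ± 0.12. HNRNPA1, the most studied silencer of the group, stayed close to parental, at −0.051 ± 0.12 in MDVR and 0.073 ± 0.19 in AbiR (3 probe sets). Its 3 probe sets read −0.18, −0.027 and 0.052 in MDVR, and 0.30, −0.044 and −0.033 in AbiR. HNRNPA1 has many processed pseudogene copies, so that its probe sets may share signal with them. HNRNPDL, a paralog of HNRNPD, differed by −0.037 ± 0.30 in MDVR and −0.060 ± 0.17 in AbiR.

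HNRNPD, also known as AUF1, binds AU-rich elements and directs mRNA decay. The mean of its 9 probe sets was −0.35 ± 0.55 in MDVR and −0.12 ± 0.12 in AbiR. In MDVR 2 probe sets, 213359_at and 229129_at, were at −1.34 and −1.26, and the other 7 lay between −0.21 and 0.12. The low pair had MDVR values of −1.27 and −1.20, against AbiR values of 0.19 and −0.056 and parental values of 0.073 and 0.056, so that MDVR stood apart from both other arrays. HNRNPD-DT, a divergent non-coding transcript annotated beside HNRNPD and not a member, was at −0.81 in MDVR and 0.12 in AbiR on its 1 probe set.

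The hnRNP F/H proteins bind G runs next to exons. HNRNPF had centred values of 0.019 in MDVR, −0.019 in AbiR and 0.47 in parental cells on its 1 probe set. The differences were −0.45 in MDVR and −0.49 in AbiR, and both rest on the same high parental value. HNRNPH3, a shorter relative, was the highest member in MDVR, with mean values of 0.38 in MDVR, −0.13 in AbiR and −0.092 in parental cells. All 4 of its probe sets were higher in MDVR, at 0.60, 0.47, 0.44 and 0.36 with a mean of 0.47 ± 0.10, or 1.38-fold. In AbiR the mean was −0.040 ± 0.26. HNRNPH1 differed by 0.11 ± 0.44 in MDVR and −0.090 ± 0.16 in AbiR, with 1 probe set at 0.72 in MDVR and the other 3 between −0.31 and 0.10.

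**Figure D2:**
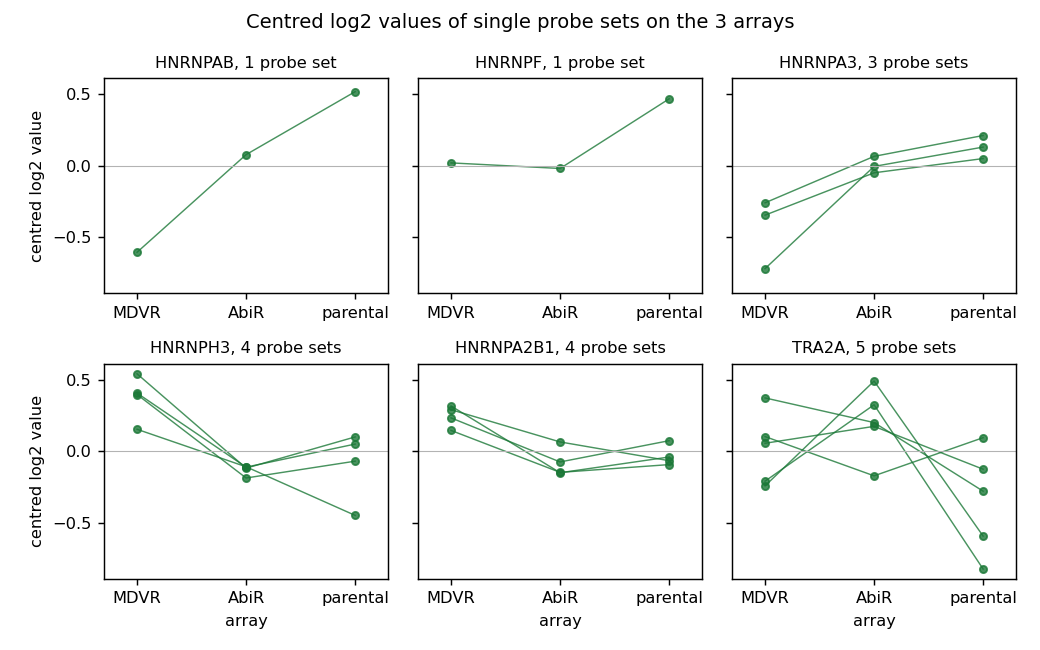
Centred log2 values of 6 member genes on the MDVR, AbiR and parental arrays, from left to right in each panel. Each point is a probe set and a line joins its 3 values; all HNRNPH3 and HNRNPA2B1 lines have their highest point at MDVR, and the HNRNPAB line is at −0.61 in MDVR, 0.078 in AbiR and 0.52 in parental cells.

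Among the hnRNPs of other families, HNRNPC held the lowest mean in AbiR and HNRNPU in MDVR. HNRNPC binds uridine tracts and can compete with U2AF2 there. Its mean values were 0.048 in MDVR, −0.20 in AbiR and 0.14 in parental cells. All 7 HNRNPC probe sets were lower in AbiR, with a mean of −0.33 ± 0.28, while the MDVR mean was −0.089 ± 0.31. The AbiR mean leaned on 227110_at, at −0.91, while the other probe sets lay between −0.39 and −0.042. HNRNPC also has near-identical copies that its probe sets may share. PTBP1, which binds CU-rich tracts and silences exons, differed by −0.032 ± 0.35 in MDVR and −0.081 ± 0.19 in AbiR on the 4 probe sets annotated to it alone. A further 5 probe sets were annotated to PTBP1 together with a microRNA, and over all 9 the means were −0.16 ± 0.28 in MDVR and −0.16 ± 0.14 in AbiR.

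HNRNPU, a nuclear scaffold protein that also binds RNA, had 5 probe sets that divided in MDVR. Probe sets 235603_at and 225805_at were at −1.10 and −0.86, and the other 3 lay between −0.072 and 0.33, for a mean of −0.31 ± 0.63. In AbiR all 5 were below parental and the mean was −0.20 ± 0.12. HNRNPUL2, a relative of HNRNPU that takes part in DNA repair, was at −0.63 and 0.20 on its 2 probe sets in MDVR, and its AbiR mean was 0.088 ± 0.10. HNRNPUL1 differed by 0.15 ± 0.011 in MDVR and 0.051 ± 0.016 in AbiR. HNRNPK, a binder of C-rich stretches, HNRNPL, a binder of CA repeats, HNRNPM and HNRNPR lay between −0.11 and 0.064 in MDVR and between −0.14 and 0.041 in AbiR. HNRNPLL, known for splicing of CD45 in T cells, averaged 0.11 ± 0.48 in MDVR with probe sets from −0.54 to 0.54, and 0.0050 ± 0.34 in AbiR.

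KHDRBS1 encodes Sam68, an RNA-binding protein that links signalling to exon choice. Its mean values were 0.20 in MDVR, −0.078 in AbiR and −0.038 in parental cells. The difference was 0.24 ± 0.19 in MDVR, with probe sets at 0.41, 0.26 and 0.033, and −0.041 ± 0.14 in AbiR. Like HNRNPA1, SRSF1 and U2AF2, KHDRBS1 stayed below a 1.2-fold difference in both sublines.

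The probe sets of a member often did not differ in the same direction in MDVR cells. Of the 39 members with 2 or more probe sets, 7 had at least 1 probe set 1.2-fold higher and at least 1 probe set 1.2-fold lower than parental, 17.9%, against 7.44% of all such genes. Among genes with 4 or more probe sets the share was 30.4% of 23 members and 17.4% of 2728 genes. The probe sets spanned at least 2-fold for HNRNPD, HNRNPH1, HNRNPLL, HNRNPU, SRSF6, SRSF10 and SRSF11 in MDVR, 17.9% of members against 9.32% of genes. With 4 or more probe sets it was 26.1% of members against 19.0% of genes. In AbiR probe sets past 1.2-fold in both directions were held by 4 of 39 members, 10.3%, against 3.83% of genes, and by 17.4% of members against 9.64% of genes with 4 or more probe sets. The AbiR span reached 2-fold for TRA2A, 2.56% of members against 4.12% of genes, and 4.35% against 8.61% with 4 or more probe sets.

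**Figure D3:**
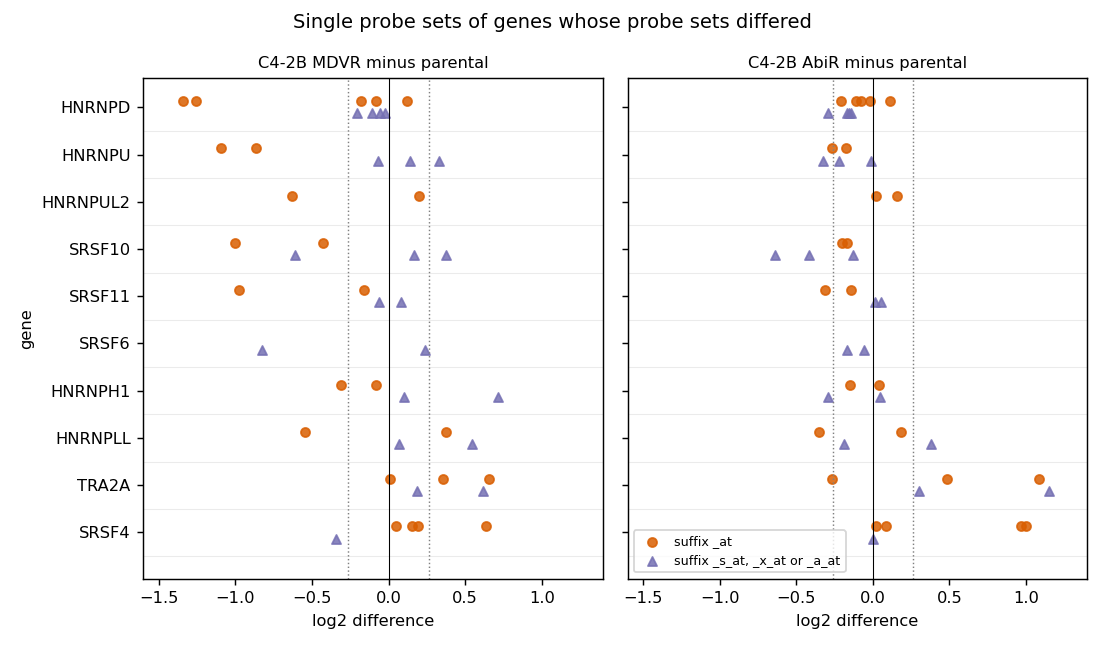
Log2 difference from parental for every probe set of 10 members whose probe sets were far apart, MDVR on the left and AbiR on the right. Circles are plain probe sets, triangles those with a shared suffix, and dotted lines mark 1.2-fold. In MDVR the HNRNPD probe sets fall at −1.34 and −1.26 and otherwise between −0.21 and 0.12.

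Part of the spread followed the kind of probe set. On this array a plain suffix marks probes designed for a single transcript group, and the suffixes _s, _x and _a mark probes that match several transcripts or genes. For 28 members that had both kinds, the plain probe sets were lower than the others in MDVR for 21, 75.0%, with a median within-gene difference of −0.12. Over 6054 genes with both kinds the share was 59.5% and the median −0.070. In AbiR the plain probe sets were lower for 6 of the 28 members, 21.4%, with a median of 0.089, against 46.7% and 0.019 over all genes. Plain member probe sets were at least 1.5-fold lower in MDVR in 10 of 76 cases, 13.2%, against 7.58% of all plain probe sets. Among the other member probe sets it was 3 of 83, 3.61%, against 6.38%. Where on a transcript each probe set lies was not analysed here, so that a difference between transcript ends or isoforms was not tested. As a value on RNA quality, the 3′ minus 5′ difference of the ACTB control probe sets, relative to parental, was −0.22 in MDVR and −0.12 in AbiR, and that of GAPDH −0.047 in MDVR and 0.061 in AbiR. The part of RNA quality in the spread was not tested.

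The sublines were also set against each other, a comparison that does not use the parental array. The members had a median MDVR minus AbiR difference of 0.012, against 0.054 over all genes and 0.021 over genes with 4 or more probe sets. They ranged from −0.68 (HNRNPAB) to 0.51 (HNRNPH3). HNRNPH3, HNRNPA2B1, SRSF12, SRSF8 and KHDRBS1 were at least 1.2-fold higher in MDVR, 5 of 43, against 16.6% of all genes. HNRNPAB, HNRNPA3, HNRNPUL2 and SRSF4 were at least 1.2-fold lower, 4 of 43, against 12.8% of all genes. Among genes with 4 or more probe sets, 10.6% were higher and 14.1% lower by that factor. Of the 23 members with that many, HNRNPH3, HNRNPA2B1 and SRSF8 were higher, and SRSF4 was lower. HNRNPAB was at least 1.5-fold lower, 1 of 43, against 3.96% of all genes, and no member was 1.5-fold higher, against 2.77%. None differed 2-fold, against 0.875% of all genes higher and 1.13% lower. HNRNPH3 was higher in MDVR on all 4 probe sets, at 0.66, 0.59, 0.52 and 0.26, and HNRNPA2B1 on all 4, from 0.23 to 0.47. HNRNPA3 was lower in MDVR on all 3 probe sets, at −0.72, −0.33 and −0.30. The SRSF4 mean of −0.28 ± 0.38 came mostly from 1 probe set at −0.84. Probe sets past 1.2-fold in both directions occurred in 11 of 39 members, 28.2%, against 9.70% of genes. Among genes with 4 or more probe sets the share was 39.1% of members and 21.9% of genes.

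The rest of the splicing machinery was read through 6 further lists with 125 measured genes. The lists were chosen with earlier results of these data known and no test was made of them. The shares of all genes to set beside their counts are 15.0% at least 1.2-fold lower and 18.2% higher in MDVR, and 11.7% lower and 11.6% higher in AbiR. The U1 snRNP, Sm and LSm proteins, which form the snRNP cores, had medians of −0.19 in MDVR and −0.20 in AbiR over 18 genes, and 8 of them in MDVR and 7 in AbiR were lower by 1.2-fold or more, while 1 in MDVR and 0 in AbiR were higher. LSM6, a subunit of the ring on U6 RNA, was at −0.61 in MDVR and −1.08 in AbiR on 1 probe set. SNRPC, the U1 protein at the 5′ splice site, was at −0.53 in both, also on 1 probe set and with the parental value shared. The further U2-related proteins had medians of −0.016 in MDVR and −0.11 in AbiR over 13 genes. By that factor 0 were lower and 1 was higher in MDVR, and 3 were lower and 0 higher in AbiR. SUGP1, a partner of SF3B1, was at 0.67 ± 0.038 in MDVR and 0.13 ± 0.022 in AbiR.

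The tri-snRNP proteins had medians of 0.11 in MDVR and −0.023 in AbiR over 16 genes. In MDVR 6 were higher and 1 was lower by 1.2-fold or more, and in AbiR 2 were higher and 3 lower. Their U5 assembly protein CD2BP2 was at 0.63 ± 0.30 in MDVR and 0.33 ± 0.14 in AbiR, and the U5 protein TXNL4A at −0.57 ± 0.78 in MDVR and −0.39 ± 0.32 in AbiR. The PRP19 complex and catalytic-step factors had medians of 0.085 in MDVR and −0.11 in AbiR over 18 genes. Here 5 were higher and 3 lower in MDVR, and 2 were higher and 4 lower in AbiR, at the same factor. XAB2, which is part of that complex and of transcription-coupled repair, was at −0.75 in MDVR and 0.45 in AbiR on 1 probe set. The kinases that phosphorylate SR proteins and the SR-related proteins had a median of 0.010 in each subline over 22 genes, with 1 higher and 2 lower in MDVR and 1 higher and 1 lower in AbiR. SRPK1, which controls the nuclear entry of SR proteins, was at −0.34 ± 0.49 in MDVR and −0.73 ± 0.029 in AbiR. The nuclear SR kinase CLK2 was at 0.49 in MDVR and 0.35 in AbiR on 1 probe set. CLK4 was at −0.40 ± 0.26 in MDVR and 0.24 ± 0.19 in AbiR.

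Larger differences were found among the 38 other regulators of alternative splicing, whose medians were −0.12 in MDVR and −0.022 in AbiR. In MDVR 12 were at least 1.2-fold lower and 5 at least 1.2-fold higher, against 15.0% and 18.2% of all genes. In AbiR 7 were lower and 6 higher, against 11.7% and 11.6% of all genes. MATR3, a nuclear matrix protein that binds RNA, was at −1.39 in MDVR and −0.28 in AbiR on 1 probe set. SYNCRIP, the hnRNP known as hnRNP Q, was at −0.90 ± 0.39 in MDVR and −0.80 ± 0.15 in AbiR over 7 probe sets. NOVA1, a neuronal regulator, was at −1.04 ± 1.25 in MDVR and 0.046 ± 0.24 in AbiR. PTBP2, the neuronal paralog of PTBP1, was at 0.67 ± 0.38 in MDVR and 0.45 ± 0.15 in AbiR. KHDRBS3, a paralog of KHDRBS1, was at 0.43 ± 0.31 in MDVR and 1.24 ± 1.0 in AbiR, and the cold-inducible CIRBP at −0.18 ± 0.22 in MDVR and 0.63 ± 0.35 in AbiR.

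**Figure D4:**
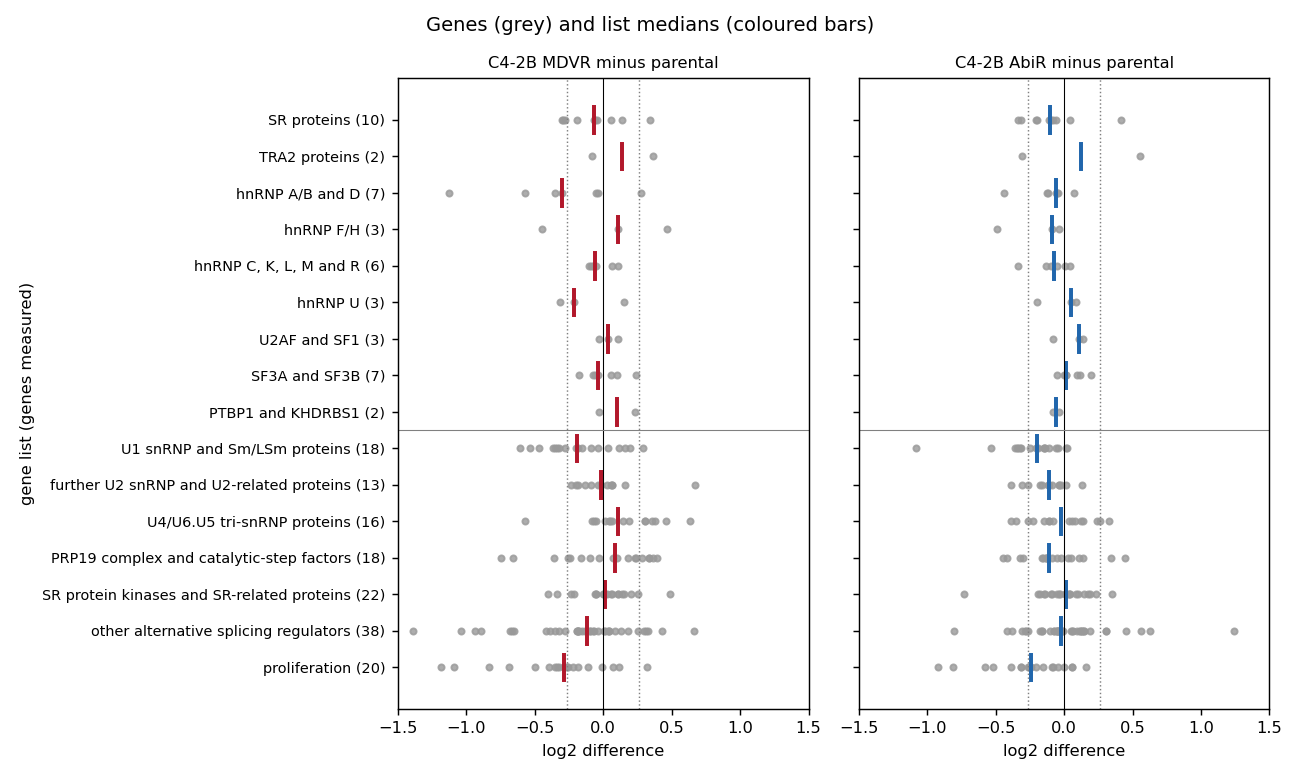
Log2 difference from parental for every gene (grey points) of the 9 member classes, the 6 other splicing lists and a proliferation list, MDVR on the left and AbiR on the right, with list medians as coloured bars and 1.2-fold as dotted lines. The U1, Sm and LSm list has medians of −0.19 in MDVR and −0.20 in AbiR, and MATR3 is at −1.39 in MDVR.

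Many splicing genes are also higher in dividing cells, and a proliferation list was read beside them. Its 20 genes had medians of −0.29 in MDVR and −0.24 in AbiR. Of these genes, 12 in MDVR and 7 in AbiR were lower by 1.2-fold or more, while 1 in MDVR and 0 in AbiR were higher. Over all genes 15.0% were lower and 18.2% higher in MDVR, and 11.7% lower and 11.6% higher in AbiR. The 5 fibroblast markers had medians of 0.16 in MDVR and 0.066 in AbiR. Of these, 2 in MDVR and 1 in AbiR were higher by 1.2-fold or more, against 18.2% and 11.6% of all genes. They were COL1A1, at 0.42 ± 0.67 in MDVR and 0.44 ± 0.64 in AbiR, and LUM in MDVR, at 0.50 ± 0.34. The 3 leukocyte markers measured had medians of 0.075 in MDVR and −0.094 in AbiR, and none reached 1.2-fold in either direction. The part of proliferation or of other cells in the differences of the splicing genes was not tested.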

How the data were processed

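RNA of C4-2B MDVR, AbiR and parental cells was profiled on 3 Affymetrix HG-U133 Plus 2.0 arrays, 1 per line. The authors deposited log2 values for 54675 probe sets, made by RMA per the submitters' processing notes (version not given in the sources used here). These values had also been centred per probe set. The values of 100% of probe sets were compatible, to a tolerance of 2e-06, with subtracting a median over 4 arrays, so the centring appears to have used 1 further array, not analysed here. The column medians were 0.027 (MDVR), −0.0053 (AbiR) and 0 (parental). The number of arrays limits the precision. No replicate array of a line was analysed, and the number of cultures behind each array is not given in the sources used here.

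Gene names came from GEO's platform annotation, in which 41091 probe sets had 1 gene symbol, 1801 several and 11721 none, besides 62 control probe sets. Gene IDs of 99.9% were found in RefSeq annotation of GRCh38.p14. A gene was the mean of its single-gene probe sets. For the members, 19 probe sets annotated to several genes and 2 annotated to a pseudogene or lncRNA were left out, and SRSF2, SRSF9 and HNRNPH2 had no single-gene probe set. Differences were counted past 1.2-, 1.5- and 2-fold. Named members were the 5 highest and 5 lowest per comparison, the 5 with the largest SD between probe sets, HNRNPA1, SRSF1, U2AF2, SF3B2, KHDRBS1 and PTBP1, and others by their class. In the other lists they were the 2 highest and 2 lowest per subline, of which not all are given. A further item of this rule is not reported here. HNRNPD-DT was chosen after its values were seen. The members and lists were chosen with earlier results of these data known. Alternatives were the median over probe sets, centring each array on its median or on the spiked controls, leaving out suffixes _s, _x and _a, using IDs starting 20 or 21, and, chosen after seeing the data, adding jointly annotated probe sets. Calculations used Python 3.11.15, numpy 2.4.6 and pandas 2.3.3, and the counting was tested on simulated data.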

Additional observations from a re-analysis of the deposited data

Results flagged for a closer look

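Probe sets annotated to a member and to a second gene were not used for the members, and 2 of them were higher than parental by more than any spiked control probe set was in the same subline. A probe set annotated to both SRSF9 and GATC was higher in MDVR cells by a log2 difference of 0.38, while the other probe set of this pair of genes was at −0.082. A probe set annotated to HNRNPUL2 and its read-through transcript with BSCL2 was higher in AbiR cells by a log2 difference of 0.32. Other such probe sets were lower beyond the controls. In MDVR a probe set shared by HNRNPA3 and its pseudogene was at −0.56, and 2 probe sets shared by PTBP1 and a microRNA were at −0.46 and −0.43. In AbiR that HNRNPA3 probe set was at −0.29, a probe set shared by the HNRNPCL genes at −0.30 and the 5 shared PTBP1 probe sets between −0.26 and −0.21.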

How the results depend on the processing

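No paired analysis was possible because each line had 1 array. An alternative median was counted as close within the SD of the spiked controls, and a count if it changed by at most 1.5-fold. A median could therefore change sign and still be counted as close. Of the alternative values for medians and counts over the members, 117 stayed close to those reported and 9 moved. The 117 include counts at 1.5- and 2-fold that were 0 and stayed 0, which says little about stability. The count of members at least 1.5-fold lower in MDVR than in parental cells was 2 with each array centred on its median, 2 with centring on the spiked controls and 2 without suffixes _s, _x and _a, against 1. Without those suffixes, which left 35 members, the count at least 2-fold lower was 0, because the only HNRNPAB probe set was left out. In AbiR the count at least 1.2-fold higher was 1 with the median over probe sets and 1 with IDs starting 20 or 21, against 2, and the count lower was 2 without those suffixes, against 6. For MDVR minus AbiR, 8 members were at least 1.2-fold higher with IDs starting 20 or 21, against 5, and 10 were lower without those suffixes, against 4. The median MDVR minus AbiR difference was −0.021 with median centring and −0.096 without those suffixes, against 0.012. Both values were counted as close although the sign changed. HNRNPU in MDVR was at 0.13 and SRSF4 in MDVR minus AbiR at 0.17 with IDs starting 20 or 21, opposite in sign to the means reported, since that setting drops their lowest probe sets. For a single gene, close meant within the SD between its probe sets, which is lenient where probe sets were uneven. With the median over probe sets HNRNPD in MDVR was at −0.033 against −0.35 and was still counted as close. Reversed meant a change of sign from a reported difference of at least 1.2-fold. By these rules, of the values for single genes, classes and lists, 800 stayed close, 38 moved and 2 reversed. With the median over probe sets, 6 members against 9 were at least 1.2-fold lower in MDVR, a change counted as close. The hnRNP A/B and D median was then −0.033 in MDVR, against −0.30, and 0.016 in MDVR minus AbiR, against −0.23. Without those suffixes, MDVR values were 0.35 for PTBP1 against −0.032, 0.21 for U2AF2 against 0.034, −0.98 for HNRNPU against −0.31, −0.20 for the hnRNP F/H median against 0.11 and −0.031 for the fibroblast median against 0.16, and SF3B1 in AbiR was at 0.40 against 0.010. With IDs starting 20 or 21, PTBP1 was at −0.44 and the hnRNP U median at 0.14 against −0.22 in MDVR, and U2AF1 in AbiR at −0.22 against 0.11. The causes of the other changes were not tested. Without replicates, no difference could be set against biological variation.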
